A study of Capra hircus with 12 samples.

Results

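The step from E55 to E65 was examined in embryonic skin of the Inner Mongolia cashmere goat, where E with a number is the embryonic day. Polyadenylated RNA of 6 embryos entered this comparison, 3 at E55 (E55-1, E55-2 and E55-3) and 3 at E65 (E65-1, E65-2 and E65-3), out of 12 samples in the series. The embryos were unrelated, the skin was taken from the mid flank, and each embryo gave 1 library, so the 3 samples of a stage were separate animals. The labels give no sex. The 3 embryos at E45 shared the estimate of the spread and are described where they help to place the levels. All genes with a mean of at least 0.1 RPKM (reads scaled by gene length and by the number of reads) over the 9 RNA-seq samples were compared, which kept 16604 of the 20486 genes listed.

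Hair follicles form in embryonic skin through an exchange of signals between the surface epithelium and the mesenchyme beneath it. Keratinocytes first gather into placodes, dermal cells condense under them, and the placodes then grow down as follicle buds, while the epidermis around them stratifies and begins to keratinize. The comparison addresses the interval to which the study assigns the initiation of primary hair follicles, the source of the guard hair. The RNA came from a whole piece of skin, so a lower value can mean fewer cells of a type or less RNA per cell, and these cannot be told apart.

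The table lists genes by identifiers of a gene set built for this genome and gives the chromosome of each, but no gene symbol and no position. None of the identifiers (0 of 20486) matched the RefSeq gene table for the goat assembly ARS1.2. The changes are therefore described by level, fold change, embryo and chromosome, with only 4 genes given by identifier. The part of an identifier such as ENSP or ENSBTAP with its number was not traced to a gene in another source. The pathway and cell type lists were therefore not analysed here, and the tissue label was not checked against marker genes.

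The embryos of a stage were first compared with each other, since their spread limits every comparison of the stages. Between E55-1 and E55-2, 2253 genes (13.6% of those tested) were at least 2-fold apart on the log2(RPKM + 0.1) scale, between E55-1 and E55-3 1810 genes, and between E55-2 and E55-3 2106 genes. The E65 embryos were closer to each other by this count, with 1176 to 1495 genes at least 2-fold apart. By the median over genes of the absolute log2 difference the pairs overlapped, with 0.258 to 0.299 within E55 and 0.236 to 0.277 within E65. The median SD of a gene on the log2 scale was 0.24 within E55 and 0.23 within E65.

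E55-1 was the E55 embryo nearest to E65, although within its stage E55-1 and E55-3 were the pair with the fewest such genes. It differed from E65-3 by at least 2-fold at 1876 genes, fewer than the 2253 at which it differed from E55-2, an embryo of its own stage. By the median over genes of the absolute log2 difference, E55-1 was instead slightly nearer to E55-2 (0.299) than to E65-3 (0.303). From E65-1 it differed at 2202 genes and from E65-2 at 2694. E55-2 and E55-3 differed from the E65 embryos at 3230 to 4009 genes. For 48.0% of the tested genes E55-1 lay nearer to the mean of the E65 embryos than to the mean of the other E55 embryos, against 33.4% for E55-2 and 30.6% for E55-3. The numbers of DEGs are therefore also given without each embryo, and the other descriptions use all samples.

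**Figure D1:**
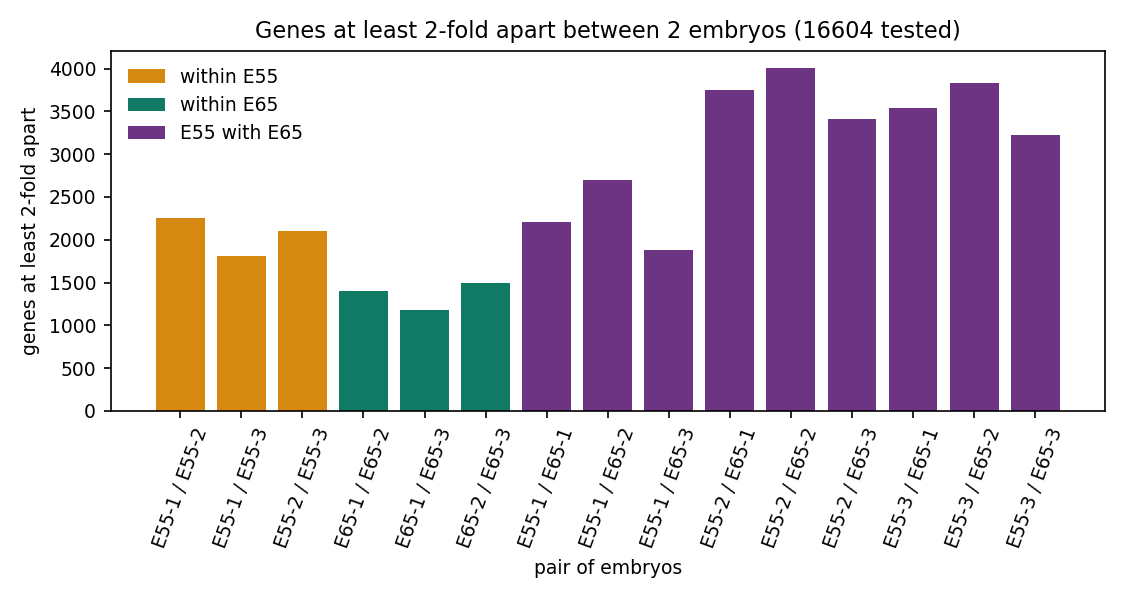
Number of genes, of 16604 tested, whose log2(RPKM + 0.1) values were at least 1 apart (2-fold) between 2 embryos, for each pair within E55 (orange), within E65 (green) and between the stages (purple). The pair E55-1 and E65-3, from different stages, differs at 1876 genes and the pair E55-1 and E55-2, from the same stage, at 2253.

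Most genes changed little between the stages. The log2 fold change, taken as E65 minus E55, lay between -1 and 1 for 14006 genes (84.4%) and had a median of 0.06 over all tested genes. With limma on log2(RPKM + 0.1), a Benjamini-Hochberg adjusted p under 0.05 and at least a 2-fold change, 351 genes were upregulated at E65 (2.11% of those tested) and 509 were downregulated (3.07%). These 860 genes are called DEGs here. A further 194 genes with a positive and 139 with a negative fold change passed the adjusted p but changed less than 2-fold. In each of the 351 upregulated DEGs all 3 E65 values lay above all 3 E55 values, and in each of the 509 downregulated DEGs all lay below. Such a separation was common among all tested genes too: the E65 values lay above the E55 values in 19.8% of them and below in 14.6%.

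The upregulated DEGs had a median log2 fold change of 1.64 (quartiles 1.26 and 2.23) and a median standard error of 0.30. Of them, 239 changed less than 4-fold, 79 between 4-fold and 8-fold and 33 by 8-fold or more, up to a log2 fold change of 5.96. The downregulated DEGs had a median log2 fold change of -1.80 (quartiles -2.43 and -1.36) and a median standard error of 0.34. Of these, 313 changed less than 4-fold, 138 between 4-fold and 8-fold and 58 by 8-fold or more. Fold changes on this scale understate the change of genes with low RPKM.

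**Figure D2:**
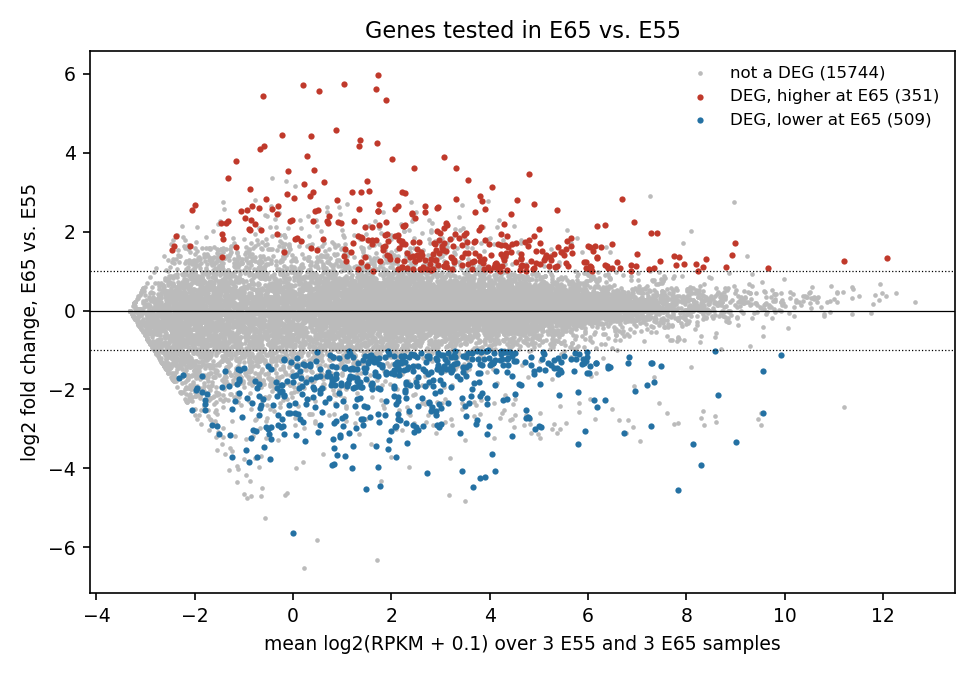
Log2 fold change in E65 vs. E55 (y axis) against the mean log2(RPKM + 0.1) of the 6 samples (x axis), 1 point per tested gene, with upregulated DEGs in red, downregulated DEGs in blue and the dotted lines at a 2-fold change. The 351 red and 509 blue points lie among 15744 grey ones, some of which changed as much in the mean but varied more between embryos.

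The numbers of DEGs depended on which embryos were in the fit. Leaving out an E55 or E65 embryo also makes its stage smaller, which makes a call harder to reach whichever embryo it is. Without E55-1 there were 557 upregulated and 530 downregulated DEGs, which included 318 of the 351 and 400 of the 509. Without E55-2 there were 178 and 196. Without E55-3 there were 127 and 91, so that upregulated genes then outnumbered downregulated ones, as they also did without E55-1. Without E65-1 there were 170 and 251, without E65-2 158 and 264, and without E65-3 240 and 485. The fits without 1 of the E45 embryos, which bear only on the estimate of the spread, gave 325 to 460 upregulated and 425 to 597 downregulated DEGs.

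**Figure D3:**
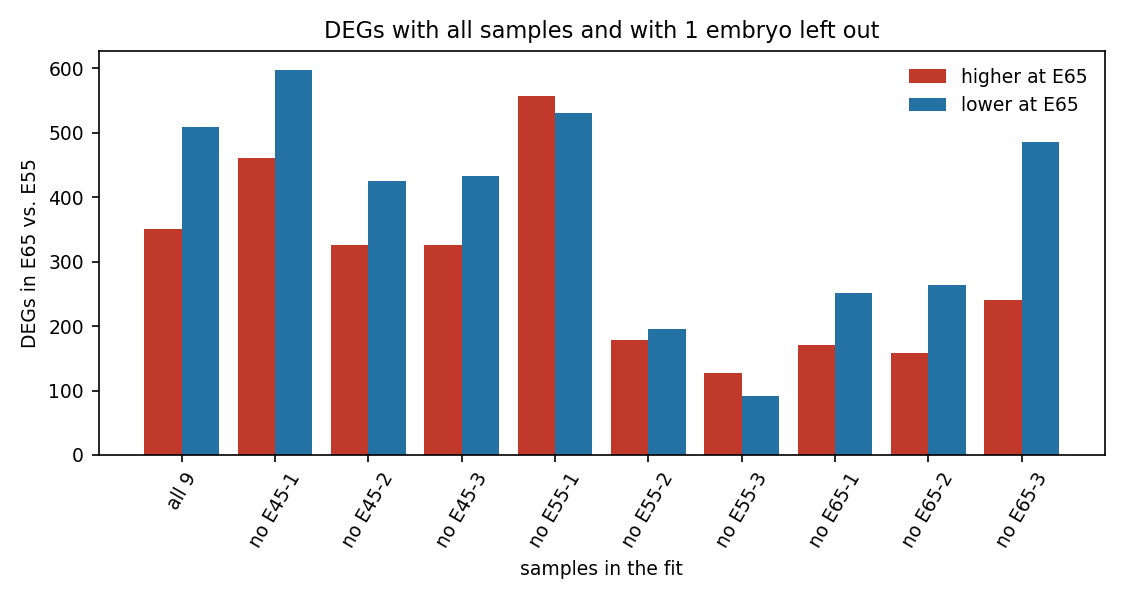
Number of upregulated (red) and downregulated (blue) DEGs in E65 vs. E55 with all 9 samples and after leaving out each embryo in turn. The bars are lowest without E55-3, at 127 and 91, and without E55-1 they stand at 557 and 530.

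A core of 190 DEGs was called in all 9 fits that left out 1 embryo, 109 of them upregulated and 81 downregulated. The fits share most of their samples, so this is a description of stability and not 9 tests. Of the other DEGs, 126 upregulated and 169 downregulated genes were called in 4 fits or fewer. The 109 upregulated genes of the core had a median log2 fold change of 1.87, and their median RPKM was 6.77, 5.36 and 5.15 in E55-1, E55-2 and E55-3 and 25.9, 27.5 and 23.8 in E65-1, E65-2 and E65-3. The 81 downregulated genes of the core had a median log2 fold change of -2.08, and their median RPKM was 10.3, 13.3 and 14.3 in the E55 embryos and 2.84, 1.94 and 3.01 in the E65 embryos, in the same order. E55-1 was thus the E55 embryo nearest to the E65 medians in both parts of the core.

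The core is represented here by the 2 upregulated and the 2 downregulated genes with the highest mean RPKM over E55 and E65 among its members. The gene listed as GOAT_ENSP00000224237_gene, on chromosome 13, had 3502.59, 2414.24 and 2379.35 RPKM in E55-1, E55-2 and E55-3 and 6825.65, 6817.49 and 7048.72 RPKM in E65-1, E65-2 and E65-3. The E65 embryos were close together and all about 2-fold or more above every E55 embryo, of which E55-1 was the highest. Its mean rose from 2765 ± 639 (SD, n = 3) to 6897 ± 131 RPKM (SD, n = 3). The log2 fold change was 1.34 with a standard error of 0.20 (adjusted p = 0.008481 from limma). In rank of mean RPKM it moved from 11 at E55 to 2 at E65 among the tested genes. At E45 it had 1808.82, 2372.89 and 2224.24 RPKM.

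The gene listed as GOAT_ENSBTAP00000018778_gene, on chromosome 14, had 369.48, 243.96 and 303.3 RPKM at E55 and 658.61, 893.34 and 848.2 RPKM at E65, in the order of the embryo numbers. The stages did not overlap, and E55-1 was again the highest of its stage. The log2 fold change was 1.40 with a standard error of 0.21 (adjusted p = 0.008481 from limma). At E45 it had 167.87, 260.89 and 234.31 RPKM, and E45-2 lay above E55-2.

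Among the downregulated genes of the core, the one listed as GOAT_ENSBTAP00000049917-D3_gene, on chromosome 12, was the most abundant. It had 131.55, 216.79 and 170.9 RPKM at E55 and 34.07, 33.75 and 26.69 RPKM at E65. E55-1, the lowest E55 embryo, was still far above the highest E65 embryo. The mean fell from 173 ± 42.7 (SD, n = 3) to 31.5 ± 4.17 RPKM (SD, n = 3). The log2 fold change was -2.43 with a standard error of 0.29 (adjusted p = 0.004086 from limma). At E45 the values were 757.01, 327.4 and 544.7 RPKM, each above all 3 E55 values. The suffix of its identifier is shared by other entries of the table and its meaning is not given in the sources used here.

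The gene listed as GOAT_ENSBTAP00000004198_gene, on chromosome 4, had 99.34, 105.7 and 142.46 RPKM at E55 and 45.08, 41.24 and 49.76 RPKM at E65. Its E65 values varied less than its E55 values, with an SD of 4.27 against 23.3 RPKM. For GOAT_ENSBTAP00000018778_gene the SD in RPKM was larger at E65 (125) than at E55 (62.8). The log2 fold change of GOAT_ENSBTAP00000004198_gene was -1.34 with a standard error of 0.21 (adjusted p = 0.009752 from limma). At E45 it had 100.73, 61.01 and 99.11 RPKM, so that E45-2 lay between the stages and the other E45 embryos at about the level of E55-1.

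**Figure D4:**
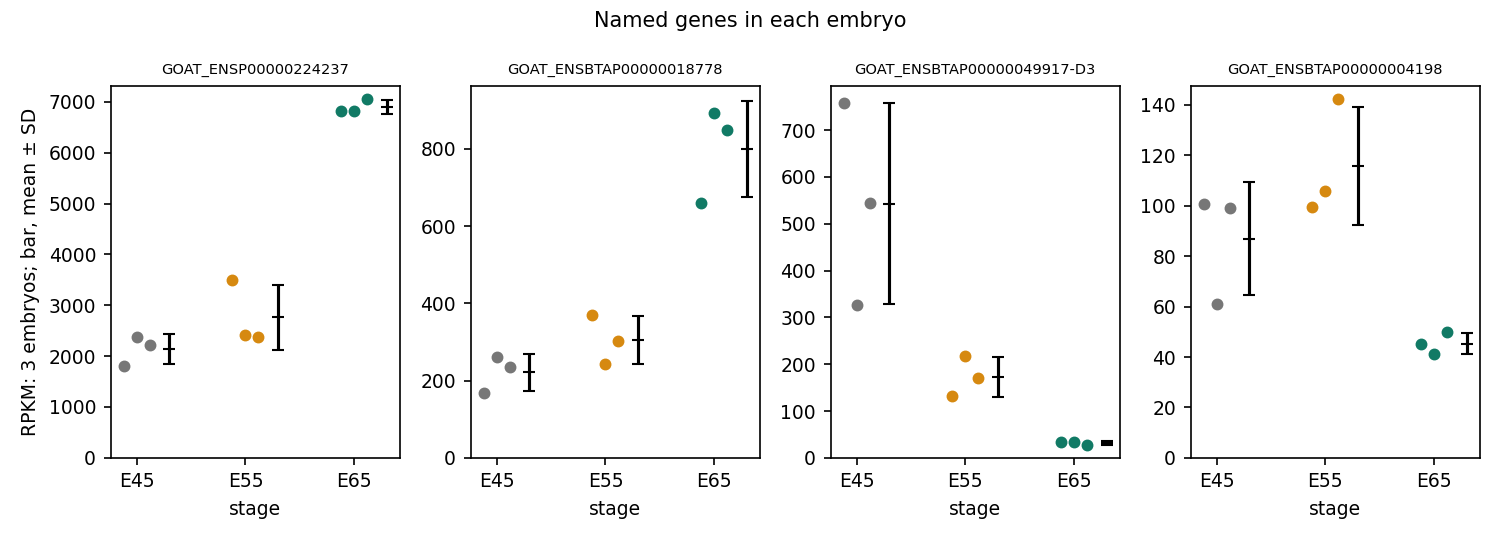
RPKM of the 4 genes given by identifier in each embryo at E45 (grey), E55 (orange) and E65 (green), with the mean and SD of each stage beside the points, on a linear axis from 0. In each panel the E55 and E65 embryos do not overlap, and the E45 embryos lie on the E55 side of E65.

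As a whole, the upregulated DEGs held 2.59%, 1.67% and 1.78% of the RPKM sum in E55-1, E55-2 and E55-3 and 4.88%, 5.03% and 4.86% in E65-1, E65-2 and E65-3. Their share was thus nearly equal in the E65 embryos, and E55-1 had the largest share of its stage. The change in mass came from few genes: 8 of the 351 made up 50% of the summed difference in mean RPKM, and GOAT_ENSP00000224237_gene alone 23.3%. The downregulated DEGs held 3.36%, 3.86% and 5.61% of the sum in the E55 embryos and 1.30%, 0.633% and 1.39% in the E65 embryos. Here 10 of the 509 genes made up 50% of the summed difference. These shares describe genes chosen for their change in the same samples, so no test was made on them.

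At E45 the medians lay at about the E55 level. The upregulated DEGs had median RPKM of 3.85, 5.51 and 5.03 in E45-1, E45-2 and E45-3, against 5.87, 4.12 and 3.59 in the E55 embryos and 15.0, 16.2 and 13.7 in the E65 embryos. The downregulated DEGs had medians of 9.06, 7.92 and 10.0 in the E45 embryos, of 6.84, 8.86 and 10.9 in the E55 embryos and of 2.73, 1.48 and 2.91 in the E65 embryos. In both groups every E45 and E55 median lay on the same side of every E65 median.

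**Figure D5:**
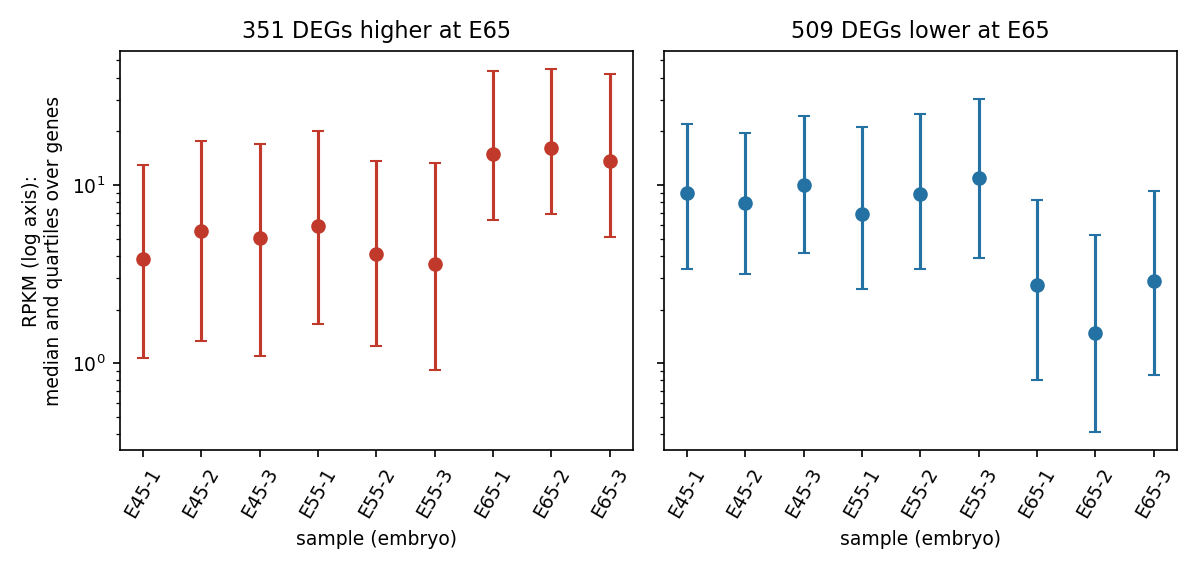
Median RPKM of the 351 upregulated (left, red) and 509 downregulated DEGs (right, blue) in each of the 9 embryos on a log axis, with bars from the lower to the upper quartile over genes. The E65 medians are 13.7 to 16.2 on the left and 1.48 to 2.91 on the right, and the E45 and E55 medians overlap in both panels.

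Single embryos took the same place in their stage in many of the DEGs. E55-1 was the highest E55 embryo in 268 of the 351 upregulated DEGs (76.4%, against 43.4% of all tested genes), and the lowest in 346 of the 509 downregulated DEGs (68.0%, against 24.6%). E55-3 lay at the other end, as the lowest in 185 upregulated (52.7%, against 36.1%) and the highest in 374 downregulated DEGs (73.5%, against 24.9%). E65-2 was the highest E65 embryo in 177 upregulated DEGs (50.4%, against 27.7%) and the lowest in 384 downregulated DEGs (75.4%, against 36.3%), and E65-3 was the lowest in 178 upregulated (50.7%, against 27.2%) and the highest in 282 downregulated DEGs (55.4%, against 35.2%). Within E65 the upregulated DEGs varied as little as other genes, with a median SD of 0.22 on the log2 scale, but the downregulated DEGs varied more, with a median SD of 0.48 against 0.23 for all tested genes. Within E55 the order was the other way, with 0.43 for the upregulated and 0.35 for the downregulated DEGs, against 0.24 for all tested genes. The spread on this scale also depends on the level of a gene, and these groups were not matched for level. The cause was not tested.

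Many of the largest falls in the mean were not called. Of the 459 genes with a log2 fold change of -2 or less, 196 (42.7%) were DEGs and 263 were not. Of the 176 genes with a log2 fold change of 2 or more, 112 (63.6%) were DEGs. The 263 genes had a median RPKM of 0.94 in E55-1, 14.8 in E55-2 and 2.99 in E55-3, and of 0.33, 0.15 and 0.37 in E65-1, E65-2 and E65-3. E55-1 was the lowest of its stage in 198 of them (75.3%). Their median SD within E55 was 1.29 on the log2 scale. Together they held 3.19%, 8.99% and 6.07% of the RPKM sum in the E55 embryos and 1.19%, 0.148% and 1.47% in the E65 embryos, more at E55 than the called downregulated genes in 2 of 3 embryos. At E45 their share was 11.2% in E45-1, 3.29% in E45-2 and 3.68% in E45-3. A single gene made up 10.9% to 32.8% of their summed RPKM, depending on the embryo. These genes were chosen for a large change that did not pass a test whose spread is taken over all 9 embryos, which favours genes that vary within a stage, so their spread within E45 and E55 is a description and nothing is read from it.

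Few of the tested genes were listed at 0 in every embryo of either E55 or E65 and above 0 in all embryos of the other stage. Such a gene passed the filter on the mean over 9 samples only through the other stage or E45. These counts therefore depend on the filter, and nothing is read from their balance. Of the tested genes, 8 were listed at 0 in all 3 E55 embryos and above 0 in all 3 E65 embryos, 4 of them DEGs, and 25 were listed at 0 in all E65 and above 0 in all E55 embryos, 1 of them a DEG. With a limit of 1 RPKM, 78 tested genes were under it in every E55 embryo and at or above it in every E65 embryo, and 36 of them were upregulated DEGs. The median of the stage means of these 36 was 3.38 RPKM at E65, against 0.315 at E55 and 0.297 at E45, and 25 of the 36 were under the limit in every E45 embryo as well. In the other direction, 130 tested genes were at or above 1 RPKM in every E55 embryo and under it in every E65 embryo, and 73 of them were downregulated DEGs. The stage means of these 73 had a median of 0.443 RPKM at E65, against 2.14 at E55 and 2.63 at E45, and 52 of the 73 were at or above the limit in every E45 embryo. The side of 1 RPKM on which the E55 and E65 medians of these 36 and 73 genes lie follows from their choice. Nothing is read from it. The number of reads behind such low values could not be recovered, so a gene listed at 0 may still have been transcribed.

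DEGs were found at every level above 0.1 RPKM. Of the genes with a mean of 0.1 to 1 RPKM over the 6 embryos, 0.935% were upregulated and 1.71% downregulated DEGs. The shares were 2.54% and 4.59% from 1 to 10 RPKM, 2.37% and 2.63% from 10 to 100 RPKM, and 3.07% and 2.65% at 100 RPKM or more. The median standard error of the log2 fold change fell from 0.53 in the lowest of these classes to 0.16 in the highest, so the low classes could show only larger changes. Among the 100 genes with the highest mean at E55, 2 were upregulated and 8 downregulated DEGs. Among the 100 highest at E65 there were 5 and 0, and limma called 7 of these 100 at an adjusted p under 0.05 at any fold change. At an unadjusted p under 0.05, 1 of the 100 had a negative fold change. The 2 sets of 100 shared 77 genes. Each set was chosen on the level in 1 of the stages compared, which favours falls in the first and rises in the second, so nothing is read from these counts: all 8 falls were in genes among the 100 highest at E55 only, and 3 of the 5 rises in genes among the 100 highest at E65 only.

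The DEGs were spread over all 30 chromosomes listed. Downregulated DEGs outnumbered upregulated ones on 23 chromosomes, upregulated ones were more on 6 (2, 10, 11, 18, 23 and 25), and chromosome 19 had 17 of each. Within the core called in all 9 fits the balance was the other way, with more upregulated genes on 18 chromosomes, more downregulated genes on 7 and as many of each on 5. The share of upregulated DEGs ran from 0.716% on the X chromosome (4 of 559 genes) to 3.21% on chromosome 23 (16 of 498). The share of downregulated DEGs ran from 1.40% on chromosome 25 to 8.99% on chromosome 27, where 17 of 189 genes were called. Of these 17, 2 belonged to the core called in all 9 fits, which held 81 of all 509 downregulated DEGs. On the X chromosome 24 genes were downregulated DEGs (4.29%), of which 1 belonged to the core. No test was made between chromosomes.

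The DEGs were also counted by the form of their identifier. Of the 2061 tested genes listed as goat_GLEAN, 32 (1.55%) were upregulated and 82 (3.98%) downregulated. Of the 6925 listed as GOAT_ENSP without a suffix, 174 (2.51%) and 199 (2.87%) were, and of the 7220 listed as GOAT_ENSBTAP without a suffix, 131 (1.81%) and 208 (2.88%). The forms with a suffix were few and had the highest shares in both directions, with 8 (3.79%) and 10 (4.74%) of 211 GOAT_ENSBTAP genes and 6 (3.21%) and 10 (5.35%) of 187 GOAT_ENSP genes. No test was made between the forms. The goat_GLEAN genes had lower values, with a median of 1.15 RPKM over the 6 embryos, against 8.51 for GOAT_ENSP genes without a suffix. In 76 cases 2 or more tested identifiers differed only by the suffix, 186 identifiers in all, and 7 of these were upregulated and 3 downregulated DEGs. Over all tested genes the shares were 2.11% and 3.07%, and no test was made on these identifiers. Whether identifiers that share all but the suffix are copies of each other was not tested. Their values are uncertain if they are, since reads with more than one location were discarded.

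The number of detected genes was compared last. Such a number also depends on sequencing depth, which was not adjusted for. By the read totals of the study, depth differed between samples, and E55-3 had the most uniquely aligned reads. An RPKM above 0 was listed for 17728, 17801 and 17954 genes in E55-1, E55-2 and E55-3 and for 17572, 17700 and 17723 genes in E65-1, E65-2 and E65-3. The stages did not overlap, but the lowest at E55 (17728) and the highest at E65 (17723) were almost equal, and the difference in the mean was -163 genes (p = 0.1 in a two-sided exact permutation test, the smallest value possible with 3 samples against 3). With a limit of 1 RPKM the stages overlapped, as E55-3 had 12461 genes and E65-3 12534 (p = 0.3 in the same exact test), while with a limit of 0.1 RPKM the difference was -264.7 genes (p = 0.1 in the same exact test). The 100 highest genes of a sample held 29.6% ± 0.631 of its RPKM sum in the E55 embryos (SD, n = 3) and 30.7% ± 0.905 in the E65 embryos (SD, n = 3), a difference of 1.09 percentage points (p = 0.1 in the same exact test), while for the 1000 highest genes the p was 0.6. The 10 highest genes held 7.73% ± 0.309 (SD, n = 3) in the E55 embryos against 8.59% ± 0.207 in the E65 embryos (SD, n = 3; p = 0.1 in the same exact test). Without E55-3 the difference in detected genes was -99.5, and without E65-2 the difference in the share of the 100 highest genes was 0.570 percentage points. The exact test cannot reach a p of 0.05 with 3 samples against 3, so by it neither difference was shown to exceed the spread between embryos.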

How the data were processed

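Per the methods of the study, reads were filtered with the FASTX-Toolkit (version 0.0.13) and aligned to the goat genome with TopHat, reads with more than one location were discarded, and a value scaled by gene length and read number was computed for each annotated gene. The authors deposited these values rounded to 2 decimals in a table named RPKM, while the methods call them FPKM, counting fragments. They are called RPKM here, and which was counted could not be settled. The genome build is not given in the sources used here. Whole reads could not be recovered: 1 of 1199 low genes had a length that gave whole reads, within 0.1 read, in all 9 samples, so no counting interval is given. The study gives read totals per sample, but the reads behind each value remain unknown. The sum of RPKM over genes was 560295, 561954 and 560772 in E55-1 to E55-3 and 582964, 602169 and 580730 in E65-1 to E65-3.

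Samples were grouped by their titles. The authors used edgeR, which needs read counts. Here log2(RPKM + 0.1) was fitted with limma 3.58.1 in R 4.3.3 across all 9 RNA-seq samples, with a term for stage, no covariate and a prior variance that follows the mean. The fit was tried on simulated data beforehand, the outcome of which is not given here. The study's thresholds (adjusted p of 0.05 and 2-fold) were kept. Python 3.11.15, numpy 2.4.6, pandas 2.3.3, scipy 1.17.1 and matplotlib 3.10.9 were used for the descriptions. The genes given by identifier were the 2 in each direction with the highest mean RPKM over E55 and E65, among DEGs without overlap that were called in each of the 9 fits without 1 sample. The comparison, gene lists and rules were chosen with earlier results of these data known. The gene lists were not matched, since none of the identifiers was found in the RefSeq gene table, and the small RNA table was not used here. Pseudocounts, filters, scalings, eBayes settings, sample weights, the 6 samples alone, a replicate block and each sample left out were tried as alternatives.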

Additional observations from a re-analysis of the deposited data

How the results depend on the processing

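When each of the 9 embryos was left out in turn, upregulated DEGs ran from 127 to 557 and downregulated DEGs from 91 to 597. The cause was not tested. Sample weights gave 576 and 777. Under the 10 other settings (pseudocounts of 0.01 and 1, genes unfiltered or filtered at a mean of 1 RPKM, median scaling, quantile normalization, the 6 samples alone, no trend, robust eBayes and the replicate block) both numbers stayed within 1.5 times those reported. The downregulated share of the DEGs, 59.2%, was 58.5% with median scaling, 53.9% with quantile normalization and 50.8% with the 6 samples alone. With the replicate block it was 63.6%. Among the fits that left out an embryo, it was 41.7% without E55-3, 48.8% without E55-1 and 66.9% without E65-3. The 4 genes given by identifier were called under each of the 20 alternatives, 9 of which (each embryo left out) were used to choose them, with adjusted p-values from limma of 0.001264 to 0.0492.

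With the replicate number as a block there were 330 upregulated and 577 downregulated DEGs, of which 297 and 458 were shared with the fit without it. The labels give no source for a pairing. Deviations from the stage means correlated at 0.025, 0.070 and 0.138 between samples of the same number. E55-2 and E55-3 each correlated best with the E65 embryo of their own number, but E55-1 correlated more with E65-2 (0.045), so not every sample did. The correlation largest in size was between different numbers, E55-3 and E65-2 (-0.146). Deviations from a stage mean cancel out within the stage, so these correlations constrain each other and no pairing is read from them. The difference in detected genes ran from -212.5 to -99.5 with 1 embryo left out, and the share of the 100 highest genes was larger by 0.570 to 1.41 percentage points. Both kept their direction with the other limits tried, with an exact p of 0.1 for genes of at least 0.1 RPKM, 0.3 for genes of at least 1 RPKM, 0.1 for the 10 highest genes and 0.6 for the 1000 highest genes. The reads behind each value could not be recovered, and rounding to 2 decimals limits the genes with low values.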
